A study of Mus musculus with 40 samples.

Results

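Lig1, Neil3, Cenpl, Cdc20 and Gins1 are 5 mouse genes of DNA replication, repair and chromosome segregation, and they were followed here through the repeat copies that lie inside them. The members are all rows of a table of annotated repeat copies that fall into 5 windows of the mouse build mm10. The windows hold 155 of the 835636 copies in the table, with 35 in the Lig1 window (chr7:13277000-13313000), 26 in Neil3 (chr8:53586000-53640000), 36 in Cenpl (chr1:161070000-161088000), 4 in Cdc20 (chr4:118432000-118438000) and 54 in Gins1 (chr2:150909000-150932000). The windows span the annotated genes except that of Gins1, which begins downstream of the gene's start at position 150905400. Lig1, Cenpl and Gins1 are annotated on the plus strand, and Neil3 and Cdc20 on the minus strand. The genes were chosen because their signal had been seen to be higher in the CBA libraries. Values of the CBA libraries are therefore given as a description, with no test for these genes, and tests are given for comparisons that use neither CBA nor the Balb/c-2 tumours it was set against.

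The study sequenced poly(A) RNA of the mouse line YUMM1.7 and of cells from the tumours that it formed on serial passage through mice. YUMM1.7 is a melanoma line from C57BL/6 mice that carries activated Braf, and all groups share this origin. The 40 libraries form 11 groups, beginning with 3 cultures of the line (YUMM1.7 cells). Tumours follow in passage order: 4 of F0, 4 of F1, 5 of F2, 5 of N2.1, 3 of N2.2 and 3 of N2.3. The last passages are Balb/c-1 with 4 tumours, Balb/c-2 with 3, and CBA with 3. The 3 tumours of Balb/c-2 were also read in a further set of libraries, Balb/c-2 rep2. The last passages bear the names of inbred mouse strains, letters name tumours of a passage, and the labels do not spell out N2. Tumours were dissociated and their cells grown in culture for 1 to 3 passages before RNA was taken, so that the RNA is that of cultured cells. The labels used here name neither age nor sex of the mice. Each passage was made once, so the tests compare differences with the spread among tumours of a passage.

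The value of a copy is its signal, which is a count of reads divided by 1 factor per library. Recovered reads lay between 1280522 (Balb/c-2 rep2 C) and 2976730 per library, and 1 read was worth 0.659 to 1.51 of signal. Whether reads were counted by strand is not stated, so reads of overlapping antisense RNA cannot be told apart from those of the gene. Of the melanocyte markers 2 of 8 had exon copies, with a summed signal of at most 1.15 in any library, and 7 of 8 had intron copies, with sums of 11.5 to 15.2 in CBA, against 12.1 to 15.97 in Balb/c-2 rep2. On exon copies leukocyte markers (5 of 6) summed to 2.35 to 5.23 in CBA, against 0 to 15.5 in Balb/c-2 rep2. Endothelial markers (1 of 3) summed to 0 to 3.26 in CBA, against 0 in every library of Balb/c-2 rep2. Fibroblast markers (5 of 7) summed to 1033 to 1736 in CBA, against 1455 to 2401 in Balb/c-2 rep2, and Col1a1, Thy1 and Dcn were near 0 while Pdgfra and Pdgfrb carried the sum. On intron copies the fibroblast markers (7 of 7) were higher in CBA without overlap, at 198 to 289.6, against 93.8 to 162 in Balb/c-2 rep2. Of all genes tested on intron copies, 39.1% were higher in CBA without overlap too. Leukocyte markers there (4 of 6) summed to 1.05 to 8.21 in CBA, against 1.33 to 4.42 in Balb/c-2 rep2, and endothelial markers (2 of 3) to 0 to 3.52 in CBA, against 0 to 5.53. Their part in the results below was not tested.

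Lig1 encodes DNA ligase I, which seals the nicks between Okazaki fragments of the lagging strand and takes part in long-patch base excision repair. Gins1 encodes a subunit of the GINS complex, which joins Cdc45 and the Mcm ring to form the helicase that opens DNA at the replication fork. Neil3 encodes a DNA glycosylase that removes oxidised bases and unhooks crosslinked strands, and it is expressed mainly in dividing cells. Cenpl encodes a subunit of the inner kinetochore, the protein assembly on the centromere to which spindle fibres attach. Cdc20 encodes an activator of the anaphase-promoting complex and is the protein held by the spindle checkpoint until chromosomes are attached. Genes of these classes are transcribed mostly from late G1 to mitosis, through E2F sites for replication and through CHR and CCAAT elements for mitosis.

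Promoters of Cdc20 and Cenpl are shown because they hold the motifs of that class. They are the RefSeq promoters (250 bases before to 50 after the gene's start, build GRCm38.p6), and capitals mark every match to the CHR (TTTGAA), the CCAAT box (CCAAT) or an E2F core (GCGGGAA) on either strand.
Cdc20 promoter, chr4:118437294-118437593, minus strand: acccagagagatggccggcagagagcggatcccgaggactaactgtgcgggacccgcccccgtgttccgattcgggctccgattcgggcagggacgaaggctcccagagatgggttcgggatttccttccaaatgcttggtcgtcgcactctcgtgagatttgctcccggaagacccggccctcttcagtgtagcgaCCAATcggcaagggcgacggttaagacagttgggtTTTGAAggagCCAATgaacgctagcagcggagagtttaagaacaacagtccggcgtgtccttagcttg
Cenpl promoter, chr1:161070517-161070816, plus strand: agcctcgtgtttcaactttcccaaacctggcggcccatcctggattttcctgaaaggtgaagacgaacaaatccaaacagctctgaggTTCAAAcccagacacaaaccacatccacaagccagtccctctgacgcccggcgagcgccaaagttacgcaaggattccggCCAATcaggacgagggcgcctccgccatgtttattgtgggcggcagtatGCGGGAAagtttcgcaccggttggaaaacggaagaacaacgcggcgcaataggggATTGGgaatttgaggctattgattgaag
The Cdc20 promoter holds a CHR whose first base is 18 bases before the start and CCAAT boxes at 53 and 8 bases before it. The Cenpl promoter holds an E2F core at 33 bases before the start, a CCAAT box at 82 bases before it, a CCAAT box on the minus strand 23 bases after it and a CHR on the minus strand at 162 bases before it. The motifs do not overlap each other. Of 32851 promoters in the same table, 17.9% hold a CHR, 4.60% an E2F core and 37.4% a CCAAT box. The 3 promoters listed for Lig1 and the 1 for Neil3 hold no exact match to these strings, and no promoter was matched for Gins1. Other forms of these sites were not searched, so a promoter without a match may still hold such a site.

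A pair of exon stretches is shown because signal counted as exon signal of Cenpl and Neil3 was read on copies that hold them. Each is the part of a repeat copy that overlaps an annotated exon (GENCODE M21), printed in the direction of the gene in lower case throughout.
Cenpl, YREP_Mm, chr1:161082908-161082945, plus strand, coding exon: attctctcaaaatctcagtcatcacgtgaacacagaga
Neil3, RMER17C with RMER17C-int, chr8:53591346-53591605, minus strand, exon of a processed transcript: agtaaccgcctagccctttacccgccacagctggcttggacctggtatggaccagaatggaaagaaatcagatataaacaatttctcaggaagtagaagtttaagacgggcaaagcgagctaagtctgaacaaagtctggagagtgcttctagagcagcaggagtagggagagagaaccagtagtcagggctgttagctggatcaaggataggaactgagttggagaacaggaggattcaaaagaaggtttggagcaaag
The Cenpl stretch is 38 bases of an annotated copy that runs into the neighbouring intron, so that reads of the copy are not all from the coding sequence. The Neil3 stretch is 260 of the 2662 bases of a copy that spans chr8:53590883-53593544 and in which lies no exon of a protein-coding transcript. Reads of that copy can therefore lie outside the exon.

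Of the 155 copies, 131 lay in introns, 13 in UTR exons, 1 in a coding exon, 6 in exons of other transcripts and 4 outside the annotated gene. Introns held 46.7% of the members' signal, UTR exons 32.3%, the coding exon 14.7% and exons of other transcripts 6.17%. The genes differed in this makeup. All of the Cdc20 signal was intronic, as was 96.0% in Lig1 and 76.1% in Neil3, while introns held 21.7% in Cenpl and 27.9% in Gins1. Cenpl and Gins1 are thus the members with copies in exons of protein-coding transcripts to set beside their introns. In Cenpl the YREP_Mm copy held 41.5% of the signal, and 38 of its 122 bases are exon. The exon sum of Cenpl can therefore hold intron reads. A mean signal of at least 5 over the libraries was reached by 28 copies, 18 in introns and 10 in exons, and 1 copy was at 0 in every library.

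Intron signal was unevenly spread along the genes. Split at the gene's midpoint, the part toward the 3' end held 90.1% of intron signal in Lig1 (15.7 of signal per kb of repeat, against 1.74 toward the 5' end), 99.4% in Neil3 (21.7 per kb against 0.0973) and 80.4% in Cdc20 (64.4 per kb against 18.7). In Cenpl and Gins1 the part toward the 5' end held more, with 71.9% (15.0 per kb, against 6.83 toward the 3' end) and 67.5% (9.39 per kb against 2.36). Lig1 and Neil3 thus rest on copies past their midpoints, and the introns before the midpoint of Neil3 gave almost no signal.

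The intron-copy sums of all 5 genes were higher in CBA than in Balb/c-2 rep2, by 5.31 to 6.68 times in the means. Over the 11 groups the sum of all 5 genes was 194 ± 57.2 in N2.3, 189 ± 44.2 in Balb/c-1 and lower in both Balb/c-2 sets, with higher group means in all other groups. Single genes departed from this, and the Neil3 mean was 57.4 ± 12.8 in Balb/c-1, against 52.00 ± 17.7 in F1. CBA had the highest group mean for Lig1, Cenpl, Cdc20 and Gins1 and the second highest for Neil3. Balb/c-2 rep2 had the lowest for all 5 and Balb/c-2 the second lowest for all 5.

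Lig1, the ligase of the lagging strand, had intron sums of 85.8, 125 and 175 in CBA, against 14.6, 30.9 and 12.1 in Balb/c-2 rep2. The means were 128 ± 44.5 and 19.2 ± 10.2 (SD, n = 3 each), a ratio of 6.68, and the groups did not overlap. The YUMM1.7 cells had 107, 49.5 and 53.1, the F0 tumours 71.3, 159, 113 and 57.04, those of F1 42.2, 64.1, 43.9 and 67.7 and those of F2 96.6, 41.5, 67.4, 40.2 and 134. These groups spread widely, and libraries of YUMM1.7 cells, F0 and F2 reached into the CBA range. The N2.1 tumours had 92.4, 54.2, 84.2, 112 and 100.1, with 77.7, 71.9 and 75.2 for N2.2 and 40.7, 34.7 and 37.1 for N2.3. The Balb/c-1 tumours had 17.5, 37.1, 41.3 and 55.2 and the first Balb/c-2 libraries 9.66, 50.4 and 11.5. The N2.3 libraries lay close together and below all of N2.1 and N2.2, and tumour B of Balb/c-2 was the highest of both Balb/c-2 sets.

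Gins1, of the replicative helicase, had intron sums of 79.5, 53.2 and 119.6 in CBA, against 10.6, 15.5 and 16.6 in Balb/c-2 rep2. The means were 84.1 ± 33.4 and 14.3 ± 3.18 (SD, n = 3 each), a ratio of 5.90. All CBA libraries lay above all Balb/c and N2.3 libraries, but CBA B, the lowest, lay within the range of every earlier group. The YUMM1.7 cells had 59.99, 51.5 and 49.2, the F0 tumours 43.9, 133, 62.3 and 51.2, those of F1 74.7, 52.9, 48.1 and 57.4 and those of F2 51.9, 20.8, 60.1, 24.9 and 88.1. The N2.1 tumours had 55.4, 52.2, 72.7, 56.5 and 73.7, with 63.3, 91.2 and 51.2 for N2.2 and 27.96, 39.4 and 40.1 for N2.3. The Balb/c-1 tumours had 18.4, 20.3, 28.8 and 30.2 and the first Balb/c-2 libraries 19.3, 22.4 and 19.5. F0 B was the highest of all libraries for Gins1, above CBA C.

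Neil3, the glycosylase, had intron sums of 95.2, 142 and 147 in CBA, against 22.6, 32.1 and 9.08 in Balb/c-2 rep2. The means were 128 ± 28.5 and 21.3 ± 11.6 (SD, n = 3 each), a ratio of 6.02. The lowest CBA library lay well above the highest of Balb/c-2 rep2. The YUMM1.7 cells had 84.2, 82.8 and 75.3, the F0 tumours 71.3, 129, 134 and 95.7, those of F1 57.97, 39.4, 36.4 and 74.3 and those of F2 125, 74.3, 63.2, 57.4 and 149.9. The N2.1 tumours had 131, 56.3, 148, 155 and 188, with 139, 100.4 and 118 for N2.2 and 41.5, 33.1 and 80.3 for N2.3. The highest group mean was that of N2.1, 136 ± 48.9, and CBA lay inside the range of N2.1 and overlapped with N2.2. The Balb/c-1 tumours had 40.5, 62.7, 55.7 and 70.8 and the first Balb/c-2 libraries 22.95, 47.1 and 10.3, all below the lowest CBA library.

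Cenpl, of the inner kinetochore, had intron sums of 83.7, 88.02 and 100.8 in CBA, against 21.3, 18.8 and 7.57 in Balb/c-2 rep2. The means were 90.8 ± 8.90 and 15.9 ± 7.31 (SD, n = 3 each), a ratio of 5.72. The CBA libraries of Cenpl spread little. The YUMM1.7 cells had 52.3, 59.6 and 31.9, the F0 tumours 43.9, 82.4, 74.6 and 62.8, those of F1 30.7, 32.6, 43.9 and 59.2 and those of F2 79.3, 19.7, 43.2, 34.4 and 51.8. The N2.1 tumours had 69.7, 32.7, 59.2, 83.03 and 52.7, with 69.2, 30.95 and 43.9 for N2.2 and 23.7, 19.7 and 60.6 for N2.3. The Balb/c-1 tumours had 25.8, 36.2, 37.5 and 52.03 and the first Balb/c-2 libraries 18.1, 38.1 and 12.6. Cenpl was the member whose CBA libraries lay above every library of all 10 other groups, and the margin was small, with the lowest CBA library at 83.7, against 83.0 in the highest of N2.1.

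Cdc20, the activator of the anaphase-promoting complex, had intron sums of 53.4, 51.1 and 108 in CBA, against 13.3, 22.1 and 4.54 in Balb/c-2 rep2. The means were 70.8 ± 32.1 and 13.3 ± 8.78 (SD, n = 3 each), a ratio of 5.31. CBA C held about as much as CBA A and CBA B together, and the mean leans on it. The YUMM1.7 cells had 50.3, 41.4 and 21.2, the F0 tumours 27.4, 78.9, 63.3 and 45.4, those of F1 41.3, 38.3, 32.1 and 58.3 and those of F2 71.1, 13.1, 29.5, 25.8 and 49.1. The N2.1 tumours had 40.3, 43.98, 65.5, 70.7 and 42.9, with 50.7, 51.03 and 61.6 for N2.2 and 27.1, 33.1 and 41.6 for N2.3. The Balb/c-1 tumours had 31.3, 21.2, 44.2 and 29.1 and the first Balb/c-2 libraries 15.7, 16.8 and 20.6. CBA A and CBA B lay close to the 3 N2.2 tumours, and all CBA libraries lay above all N2.3 and Balb/c libraries.

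**Figure D1:**
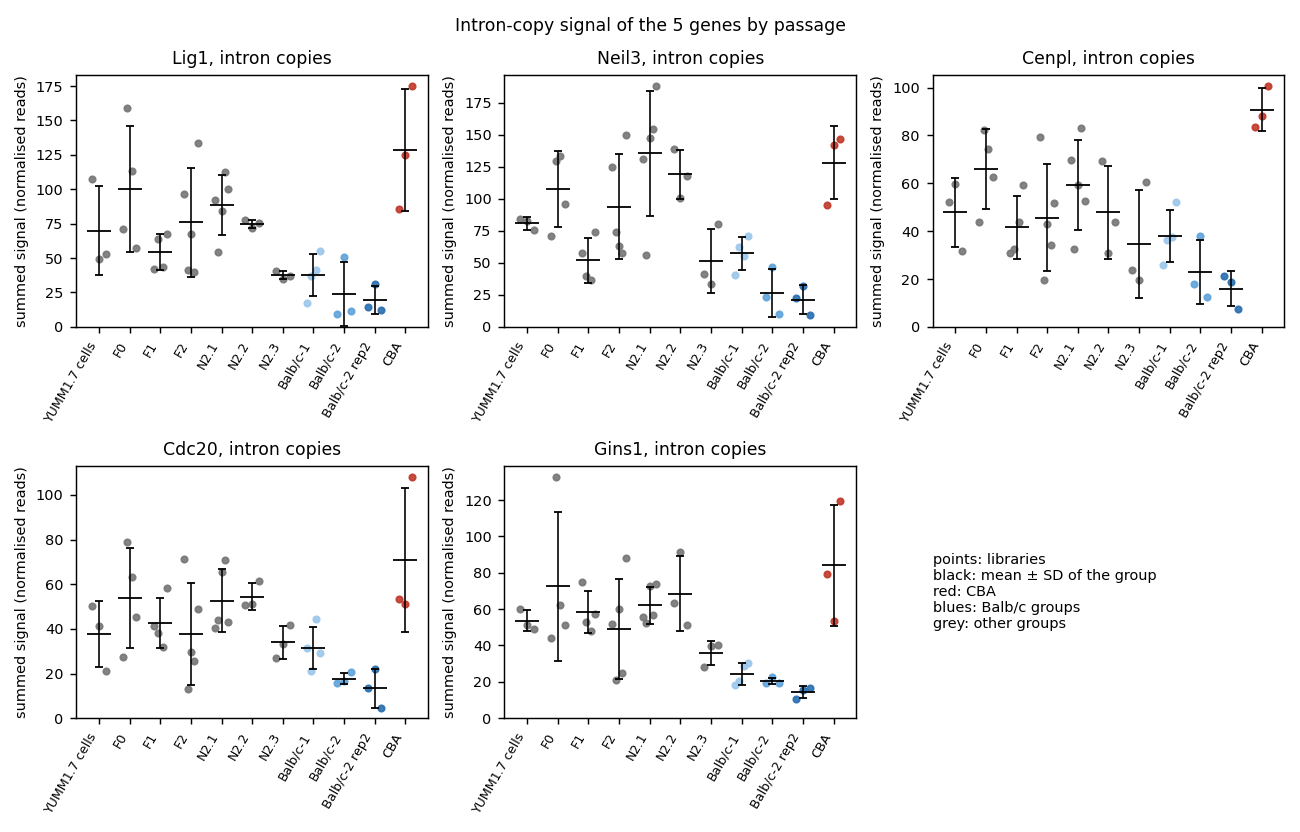
Summed signal of intron copies (normalised reads, vertical axis) of Lig1, Neil3, Cenpl, Cdc20 and Gins1 in the 11 groups in passage order, with a point per library and the mean ± SD in black. The lowest means of all 5 panels are those of Balb/c-2 rep2 and Balb/c-2, and for Cenpl the CBA points, from 83.7 upward, lie above all others.

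Set against the other groups one at a time, the label of genes raised in CBA held for part of the series. All 5 genes had CBA libraries wholly above those of Balb/c-2 rep2, where 39.1% of the 10177 genes with intron copies did so too. All 5 did so against Balb/c-2 (23.4% of genes, member ratios 3.96 to 5.39), Balb/c-1 (19.8%, ratios 2.23 to 3.44) and N2.3 (17.8%, ratios 2.08 to 3.43). Against N2.2 it was 2 of 5 (7.72% of genes, ratios 1.07 to 1.89), and against N2.1 1 of 5 (7.28%, ratios 0.945 to 1.53). Against F2 it was 1 of 5 (25.8%), against F1 3 of 5 (38.3%), against F0 1 of 5 (16.7%) and against YUMM1.7 cells 3 of 5 (41.6%). Ratios to F0 were 1.16 to 1.38. All 5 members were thus higher in CBA than in the Balb/c passages and N2.3 without overlap, and most overlapped with F0, F2, N2.1 and N2.2, while Lig1 and Cenpl lay above N2.2. The values chose the members and support nothing more.

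The share of a library's whole signal that lay in introns also differed between groups. It was 25.9 ± 1.38% in CBA, against 18.4 ± 0.949% in Balb/c-2 rep2 (SD, n = 3 each), without overlap. Counted per 100000 of a library's own intron signal, the 5 genes together held 92.1 ± 26.8 in YUMM1.7 cells, 96.9 ± 32.4 among F0, 83.4 ± 5.57 among F1 and 87.96 ± 23.3 among F2 tumours. The N2.1 tumours had 82.8 ± 17.3, N2.2 had 71.6 ± 4.35 and N2.3 had 41.97 ± 8.22. Balb/c-1 stood at 48.05 ± 14.4, the Balb/c-2 sets at 25.6 ± 8.33 and 23.3 ± 8.55 (rep2), and CBA at 100.4 ± 17.7. On this scale CBA lay close to YUMM1.7 cells and F0, and both Balb/c-2 sets lay well below, where the unscaled sum of the 5 genes was 398 to 649 in CBA, against 231 to 354 in YUMM1.7 cells. In bulk libraries fewer dividing cells and less RNA per cell cannot be told apart.

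On the log2(signal + 1) scale the intron differences of CBA over Balb/c-2 rep2 were 2.73 for Lig1, 2.67 for Neil3, 2.56 for Cenpl, 2.46 for Cdc20 and 2.43 for Gins1. The median of all 10177 genes was 0.61, and 12.7% of them were called at a limma adjusted p under 0.05. Genes with a higher difference numbered 34 for Lig1, 42 for Neil3, 62 for Cenpl, 94 for Cdc20 and 106 for Gins1. With the intron share of each library as a covariate the 5 differences were 1.66 to 1.95, and with libraries scaled to their own intron signal they were 1.97 to 2.27. With 1 of the 6 libraries left out they lay between 1.89 (Cdc20) and 3.12 (Lig1). The deposited column names place 5 of these 6 libraries on 1 flow cell lane and Balb/c-2 rep2 B on another. Within that lane the intron differences were 2.49 to 3.12 and the exon differences 1.28 (Cenpl), 0.99 (Gins1) and 4.16 (Neil3).

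**Figure D2:**
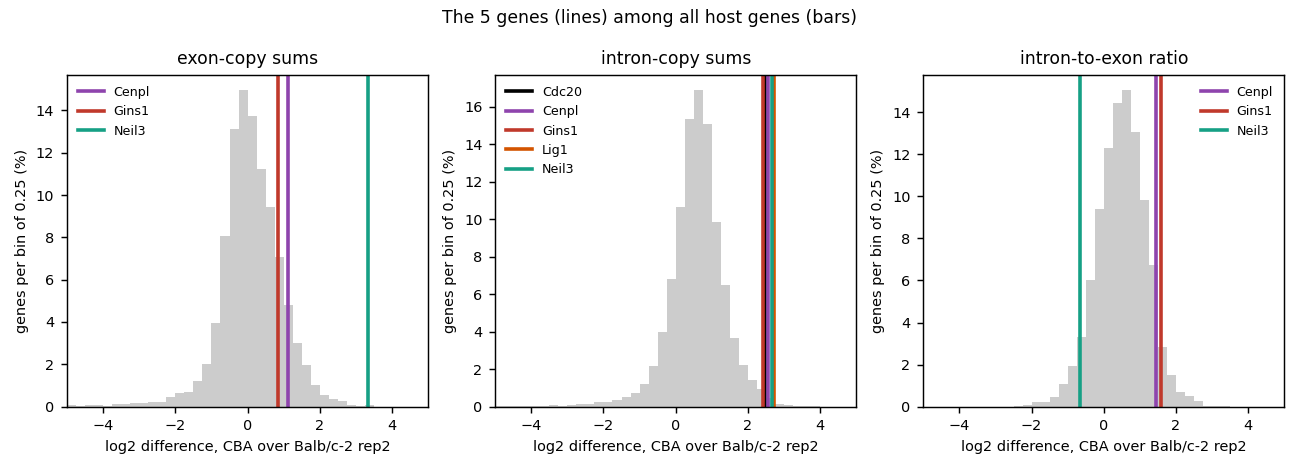
Distribution over all host genes (grey bars, per cent of genes per bin of 0.25, axis limited to -5 to 5) of the log2 difference of CBA over Balb/c-2 rep2 for exon-copy sums, intron-copy sums and their ratio, with the members as coloured lines. The 5 intron lines stand together at 2.43 to 2.73, right of the median of 0.61, while the exon lines of Gins1 and Cenpl lie at 0.85 and 1.12 and that of Neil3 at 3.34.

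Exon copies showed a smaller difference than intron copies in Cenpl and Gins1, the genes with copies in exons of protein-coding transcripts. Cenpl copies in exons of protein-coding transcripts summed to 231, 174 and 288 in CBA, against 108, 135 and 83.2 in Balb/c-2 rep2, and the ratio of means was 2.13. Those of Gins1, a single BC1_Mm copy in its UTR, had 131, 122 and 123 in CBA, against 67.9, 84.01 and 57.5 in Balb/c-2 rep2, a ratio of 1.79. Neither gene overlapped between these groups, which held for 17.6% of the 7639 genes with exon copies (12.5% were called by limma). Both overlapped with Balb/c-1, where Cenpl had 143, 161, 183 and 202 and Gins1 101.4, 116, 163 and 185.

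The order of groups was not the same in exons as in introns. For Cenpl exons (mean ± SD) YUMM1.7 cells had 183 ± 49.02, F0 139 ± 38.1, F1 188 ± 42.5, F2 177 ± 38.7, N2.1 162 ± 20.2, N2.2 133 ± 26.7, N2.3 132 ± 60.9, Balb/c-1 172 ± 25.7, Balb/c-2 109.8 ± 39.4, Balb/c-2 rep2 109 ± 25.8 and CBA 231 ± 57.3. CBA was the highest of these, and its libraries overlapped with those of 6 groups. For Gins1 exons YUMM1.7 cells had 175 ± 84.8, F0 139 ± 56.4, F1 142 ± 59.6, F2 141 ± 39.7, N2.1 135 ± 22.2, N2.2 154 ± 16.1, N2.3 90.1 ± 7.06, Balb/c-1 141 ± 39.4, Balb/c-2 86.9 ± 11.8, Balb/c-2 rep2 69.8 ± 13.4 and CBA 125 ± 4.89. CBA ranked 8 of 11 for Gins1 exons, and all its libraries lay below those of N2.2. Neighbours in either order mostly overlapped, and both genes were lowest in the 2 Balb/c-2 sets.

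Neil3 and Lig1 have exon copies in other transcripts alone. Those of Neil3 summed to 37.7, 51.1 and 77.4 in CBA, against 2.66, 15.5 and 1.51 in Balb/c-2 rep2, nearly all of it from the RMER17C copy shown above. The log2 difference was 3.34, and 1 of the 7639 genes had a higher one. In the earlier groups the Neil3 exon sum averaged 18.3 ± 6.04 in YUMM1.7 cells, 38.4 ± 15.6 among F0, 16.9 ± 5.62 among F1, 25.3 ± 14.3 among F2 and 42.01 ± 23.6 among N2.1 tumours. The Neil3 exon sum was thus highest in CBA, where its introns were highest in N2.1, and the libraries of both groups overlapped. The single Lig1 copy, PB1D10, had 1.05, 4.35 and 5.86 in CBA, against 1.33, 1.10 and 0 in Balb/c-2 rep2, and was under the mean of 5 needed for a test.

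The ratio of introns to exons of protein-coding transcripts, as a difference of log2(signal + 1), was highest in F0 for Cenpl and in CBA for Gins1. Cenpl had -1.46, -0.97 and -1.51 in CBA, against -2.29, -2.78 and -3.30 in Balb/c-2 rep2. Gins1 had -0.71, -1.18 and -0.04 in CBA, against -2.56, -2.37 and -1.73 in Balb/c-2 rep2. The groups did not overlap for either gene, which held for 41.8% of 3717 genes. The mean for Cenpl was -1.31 ± 0.294 in CBA and -1.05 ± 0.246 in F0, and for Gins1 -0.643 ± 0.571 in CBA and -2.47 ± 0.0760 in Balb/c-1, the lowest group. With all annotated exons the log2 difference of the ratio, CBA over Balb/c-2 rep2, was 1.44 for Cenpl, 1.58 for Gins1 and -0.67 for Neil3, beside a median of 0.51 over 5634 genes, of which 3.02% were called. In Cenpl and Gins1 the intron copies thus differed more than the exon copies, as they did in the median gene. In Neil3 they differed less than the copies counted as exon copies. Nearly all signal of those is from the RMER17C copy of 2662 bases, of which the exon stretch shown above is 260. The Neil3 ratio therefore does not compare introns with exons alone, and neither does that of Cenpl, whose YREP_Mm copy also runs into an intron.

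**Figure D3:**
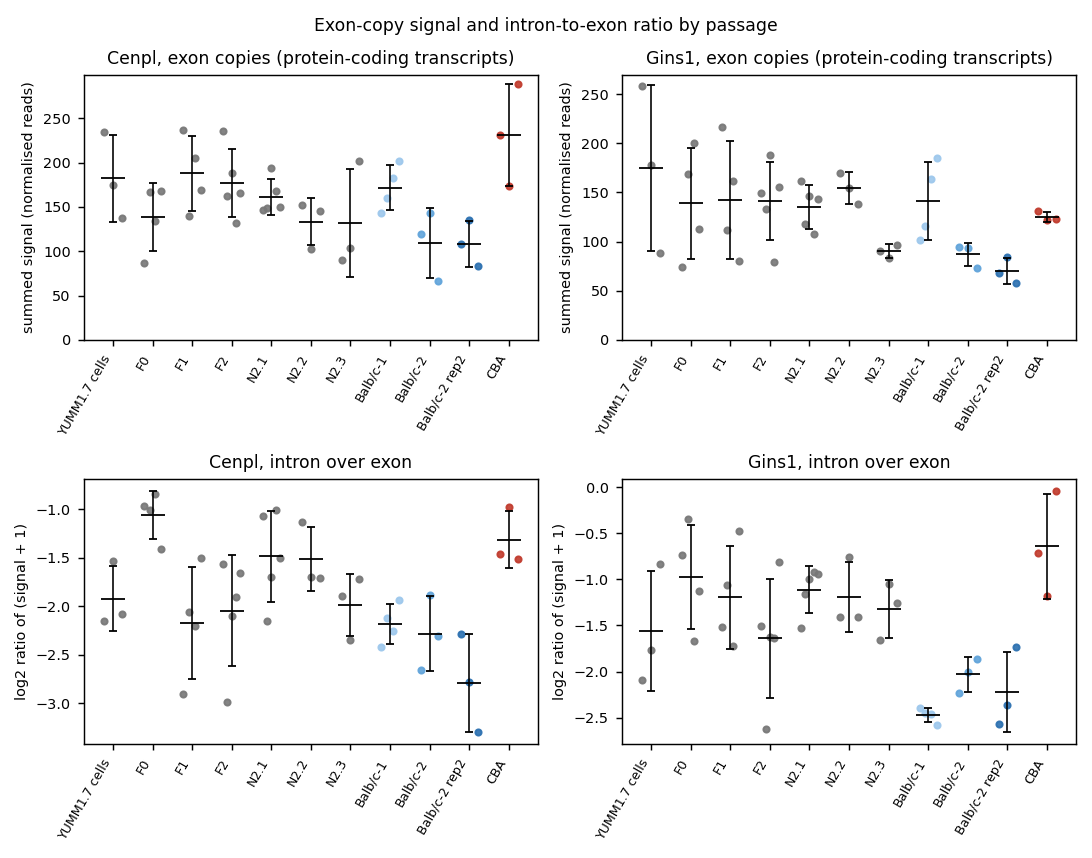
Summed signal of copies in exons of protein-coding transcripts (top, normalised reads) and log2 ratio of intron to exon signal (bottom) for Cenpl and Gins1 in the 11 groups, with a point per library and the mean ± SD in black. In the exons of Gins1 the CBA points, 122 to 131, sit amid the earlier groups, while in the ratio they reach from -1.18 to -0.04, above all Balb/c points.

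Single copies are described for the 28 with a mean of at least 5. In CBA against Balb/c-2 rep2, the log2 differences of the 18 intron copies were 1.82 to 3.93 and those of the 10 exon copies -0.16 to 3.71. The 7 UTR copies reached from -0.16 to 1.503. The copies whose CBA and Balb/c-2 rep2 libraries overlapped were RLTR13C3 in a Lig1 intron, Lx5 in a Neil3 intron, and RSINE1 and both B3A copies in the UTR of Cenpl. Without the CBA libraries 26 of the 28 had a mean of at least 5, and RLTR13C3 and the ZP3AR copy at chr7:13302285-13302404, both in Lig1, passed through CBA alone. The share of all copies in the series without overlap is not given here. On sums per gene, CBA lay wholly above Balb/c-2 rep2 in 39.1% of genes on introns and 17.6% on exons. Copies of 1 gene share its transcript, so they are not replicates.

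In Lig1 the ZP3AR copy at chr7:13309816-13310333, near the 3' end, had 19.9, 20.6 and 32.8 in the CBA libraries, against 0, 3.32 and 0 in Balb/c-2 rep2. The MLT1J2 copy at chr7:13300495-13300793 had 15.7, 31.5 and 44.5 in the CBA libraries, against 3.99, 4.42 and 6.05 in Balb/c-2 rep2. The ZP3AR copy had the largest difference of the 28, against a group in which all but 1 library were at 0. In Gins1 the intron copy L2c at chr2:150913977-150914385 had 10.5, 5.43 and 25.8 in the CBA libraries, against 0, 0 and 0 in Balb/c-2 rep2. The UTR copy BC1_Mm at chr2:150931032-150931139 had 131, 122 and 123 in the CBA libraries, against 67.9, 84.01 and 57.5 in Balb/c-2 rep2. The exon copy of Gins1 thus carried far more signal than this intron copy and differed less.

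In Neil3 the MLT1C2 copy at chr8:53602756-53603183 had 31.4, 40.2 and 66.8 in the CBA libraries, against 13.3, 5.53 and 6.05 in Balb/c-2 rep2. An L2 copy begins at the next base and had 21.97, 22.8 and 26.96 in the CBA libraries, against 3.99, 12.2 and 0 in Balb/c-2 rep2. The RMER17C copy at chr8:53590883-53593544 had 35.6, 48.9 and 72.7 in the CBA libraries, against 2.66, 15.5 and 0 in Balb/c-2 rep2. All 3 lie toward the 3' end of Neil3, and none of their groups overlapped, for which the share over all copies is not given here.

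In Cenpl the RMER6B copy at chr1:161074941-161075372, in an early intron, had 19.9, 22.8 and 22.3 in the CBA libraries, against 1.33, 0 and 1.51 in Balb/c-2 rep2. The YREP_Mm copy at chr1:161082824-161082945, which reaches into the coding exon shown above, had 167, 112 and 175 in the CBA libraries, against 75.8, 82.9 and 49.9 in Balb/c-2 rep2. The RSINE1 copy of its UTR at chr1:161085111-161085260 had 6.28, 2.17 and 9.38 in the CBA libraries, against 6.65, 9.95 and 3.03 in Balb/c-2 rep2. It is the copy among the 28 with a difference below 0. In Cdc20 the B1_Mus1 copy at chr4:118433956-118434098 had 12.6, 13.04 and 22.3 in the CBA libraries, against 1.33, 0 and 0 in Balb/c-2 rep2. The L1MB7 copy at chr4:118433203-118433467, which holds about as much signal as the other 3 together, had 25.1, 19.6 and 46.9 in the CBA libraries, against 1.33, 15.5 and 4.54 in Balb/c-2 rep2. All 4 Cdc20 copies were higher in every CBA library than in any of Balb/c-2 rep2. The share of all single copies that were so is not given here. The 39.1% above is of intron sums per gene, which is another unit.

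**Figure D4:**
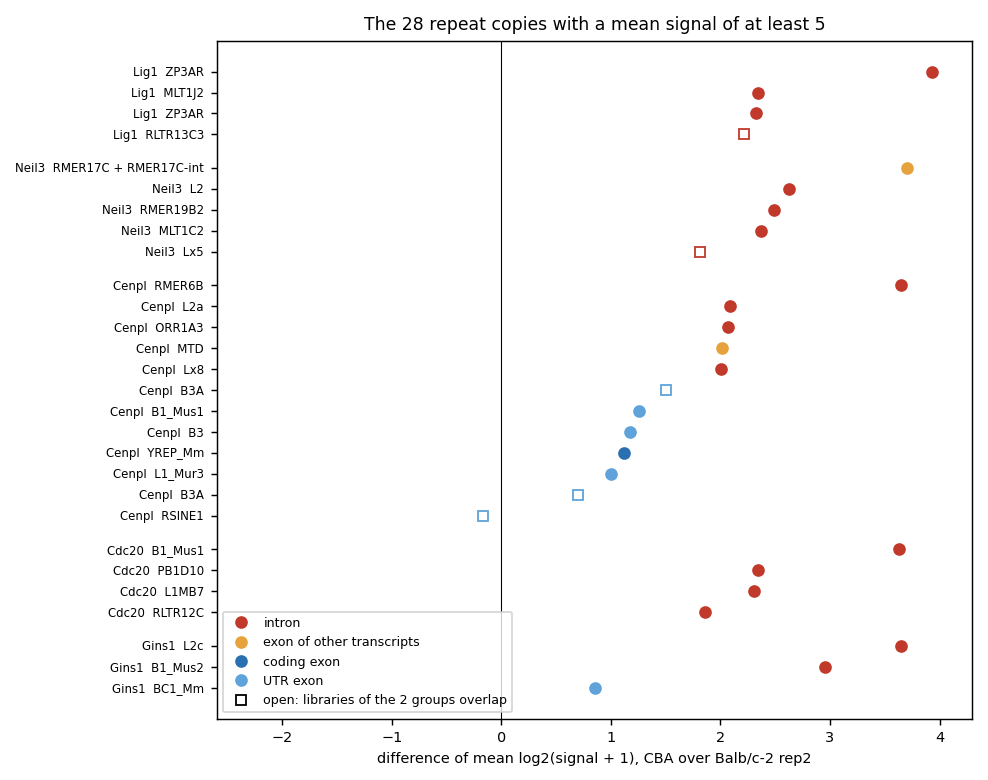
Difference of mean log2(signal + 1), CBA over Balb/c-2 rep2, for the 28 copies with a mean signal of at least 5, grouped by gene and coloured by place, with open squares where the libraries of both groups overlap. Intron copies lie at 1.82 to 3.93, the UTR copies at -0.16 to 1.503 and the coding copy at 1.12.

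The 5 comparisons of a later with an earlier group that use neither CBA nor Balb/c-2 tumours were tested with limma over all genes. None of 25 intron tests, 15 exon tests and 15 ratio tests of the members passed an adjusted p of 0.05 (limma). At an unadjusted p under 0.05 there were 4, 0 and 4. edgeR called 1 of the intron tests and DESeq2 2, and both called 0 of the exon tests.

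The comparison nearest to the threshold was N2.3 against N2.1, where limma called 1.57% of all genes on intron sums. All 5 members had negative log2 differences, beside a median of -0.08 over all genes. Neil3 had -1.37 (SE 0.389, limma adjusted p = 0.0564) and Lig1 -1.18 (SE 0.415, adjusted p = 0.159). Cenpl had -0.87 (adjusted p = 0.344), Gins1 -0.78 (0.336) and Cdc20 -0.60 (0.612), all by limma. Neil3 passed under 8 of 19 alternatives, among them edgeR (adjusted p = 0.0137), DESeq2 (0.00218), TMM scaling (0.0328) and without N2.1 B (0.0104) or N2.3 C (0.0321). Lig1 passed with DESeq2 (0.0393). Lig1 and Gins1 were lower in N2.3 without overlap (5.08% of all genes were), and for Neil3, Cenpl and Cdc20 the highest N2.3 tumour reached into the N2.1 range.

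Balb/c-2 holds the tumours of Balb/c-2 rep2, against which the members were chosen, so its differences from Balb/c-1 are given with no test. They were negative for all members, in introns and in exons. The intron log2 differences, Balb/c-2 minus Balb/c-1, were -1.28 for Neil3, -0.92 for Lig1, -0.80 for Cenpl, -0.76 for Cdc20 and -0.22 for Gins1. Of all genes 0.00% were called by limma (665 had an unadjusted p under 0.05, DESeq2 called 4 and edgeR 0). On exon sums Cenpl had -0.71, Gins1 -0.66 and Neil3 -0.79, where 0.0262% of all genes were called.

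In the other comparisons most member differences lay near the median of all genes. In F0 against YUMM1.7 cells the intron differences were 0.30 to 0.49, beside a median of 0.42 over all genes, and 0.00983% of genes were called. In F2 against F0 they were -0.62 to -0.25 (median -0.42, 0.0393% called). In N2.1 against F2 they were 0.33 to 0.64 (median 0.60), and none of the 5 passed where 29.5% of genes did. Cdc20 passed there without F2 A (limma adjusted p = 0.0425) and Gins1 without F2 E (0.0401). In Balb/c-1 against N2.3 they were -0.55 to 0.26 (median -0.24, 3.11% called). On exon sums the members' differences in these comparisons lay between -0.66 and 0.98, both of Neil3, with none called among 0.0131%, 0.170%, 15.1% and 7.33% of all genes. For N2.3 against N2.1 the 3 exon differences were -0.99 to -0.33 (limma adjusted p 0.324 to 0.559, 3.89% of genes called).

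The intron-to-exon ratio of no member passed in these comparisons either. Cenpl had a log2 difference of -0.97 in F2 against F0 (limma adjusted p = 0.148, 0.0532% of genes called) and of 0.89 in F0 against YUMM1.7 cells (adjusted p = 0.212, 0.0177% called). Gins1 had -1.15 in Balb/c-1 against N2.3 (adjusted p = 0.157, 0.0355% called). There the introns of Gins1 were lower and its exons higher than in N2.3, by -0.55 and 0.60 on the log2 scale, neither past the threshold. The shares of genes called were 14.1% for N2.1 against F2, 0.00% for N2.3 against N2.1 (limma, with 441 genes at an unadjusted p under 0.05) and 0.0177% for Balb/c-2 against Balb/c-1.

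The other genes of the same processes were followed in 5 lists of 165 genes. The lists were drawn up after the 5 genes were known to be high in CBA, so their direction there is no independent evidence. On exon-copy sums, 55 of 111 genes tested rose in CBA against Balb/c-2 rep2 and 1 fell (limma, adjusted p under 0.05 over all genes). That is 49.5% higher, beside 5.94% of all 7639 genes, with a median log2 difference of 1.12 beside 0.05. TMM scaling gave 36 higher and 5 lower of the list beside 238 and 1043 of all genes, where the deposited scaling gave 454 and 499. It moved the median of all genes to -0.23. Without Balb/c-2 rep2 C 25 were higher, without CBA C 36, and with the intron share as a covariate 26. On intron-copy sums 94 of 147 rose (63.9%, beside 11.7% of all genes), and the median was 1.66 beside 0.61. There TMM gave 75, edgeR 34 higher and 2 lower, DESeq2 39, the covariate 6, scaling to intron signal 52, and leaving out Balb/c-2 rep2 C or CBA C gave 54 or 55. Over all genes the intron split was 1193 higher and 99 lower, with 554 and 140 under TMM and 142 and 210 in edgeR.

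Replication genes rose in 17 of 31 tested on exon copies (median 1.24). Rfc3, of the clamp loader, had 18.4 ± 9.43 in CBA, against 0.812 ± 0.712 in Balb/c-2 rep2 (log2 difference 3.41, SE 0.555, limma adjusted p = 0.000253), and the fitted difference depends on the added 1, since the lower group had at most 1 read a library. Dna2, a nuclease and helicase of Okazaki fragments, had 50.3 ± 22.1 in CBA, against 8.88 ± 2.48 in Balb/c-2 rep2 (2.32, SE 0.488, adjusted p = 0.00206). Timeless, of the fork protection complex, differed by 2.72 (adjusted p = 0.0219) and Prim1, the small primase subunit, by 2.12 (adjusted p = 0.0100). The smallest differences that passed were those of Mcm6, of the helicase ring, with 0.89, and Rfc2, of the clamp loader, with 0.76.

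Centromere and kinetochore genes rose in 14 of 31 (median 0.97). Cenpu, an inner kinetochore subunit like Cenpl, had 50.6 ± 10.01 in CBA, against 14.3 ± 8.78 in Balb/c-2 rep2 (1.88, SE 0.413, limma adjusted p = 0.00294). Cenpn, the partner of Cenpl in the inner kinetochore, had 27.5 ± 10.97 in CBA, against 4.86 ± 3.14 in Balb/c-2 rep2 (2.39, SE 0.635, adjusted p = 0.0120). Mis18a, which helps to load the centromeric histone, differed by 2.59 (adjusted p = 0.000990) and Ndc80, of the outer kinetochore, by 2.35 (adjusted p = 0.00747). The smallest that passed were Hjurp, the chaperone of the centromeric histone, with 0.85 and Spc25, a partner of Ndc80, with 0.85.

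The list of mitotic entry, the spindle checkpoint and the anaphase-promoting complex, to which Cdc20 belongs, had 14 of 25 higher and 1 lower (median 1.01). Birc5, a subunit of the chromosomal passenger complex, had 123 ± 23.3 in CBA, against 29.1 ± 10.8 in Balb/c-2 rep2 (2.08, SE 0.426, limma adjusted p = 0.00167). Cdk1, the mitotic kinase, had 45.4 ± 9.42 in CBA, against 11.3 ± 3.63 in Balb/c-2 rep2 (1.93, SE 0.419, adjusted p = 0.00272). Its cyclin Ccnb1 differed by 2.48 (adjusted p = 0.0158) and Cdca8, another passenger subunit, by 1.92 (adjusted p = 0.00506). The gene that fell was Anapc16, a subunit of the complex that Cdc20 activates, with 268 ± 28.3 in CBA, against 441 ± 106 in Balb/c-2 rep2 (-0.70, adjusted p = 0.0137).

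Proliferation markers rose in 9 of 12 (median 1.24). Uhrf1, which maintains DNA methylation at the fork, had 120.2 ± 21.1 in CBA, against 24.8 ± 14.7 in Balb/c-2 rep2 (2.38, SE 0.400, limma adjusted p = 0.000323). Tk1, the thymidine kinase of S phase, had 2063 ± 178 in CBA, against 674 ± 260.4 in Balb/c-2 rep2 (1.68, SE 0.422, adjusted p = 0.00795). Mybl2 and Foxm1, transcription factors of mitotic genes, differed by 1.54 (adjusted p = 0.0169) and 1.32 (adjusted p = 0.00108). The smallest that passed were Rrm2 with 1.12 and Rrm1 with 0.89, the subunits of ribonucleotide reductase. Base excision repair, the pathway of Neil3, had 1 of 12 higher (median 0.47). That gene was Xrcc1, a scaffold of single-strand break repair, with 45.9 ± 23.2 in CBA, against 11.1 ± 2.12 in Balb/c-2 rep2 (1.86, SE 0.389, adjusted p = 0.00200).

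**Figure D5:**
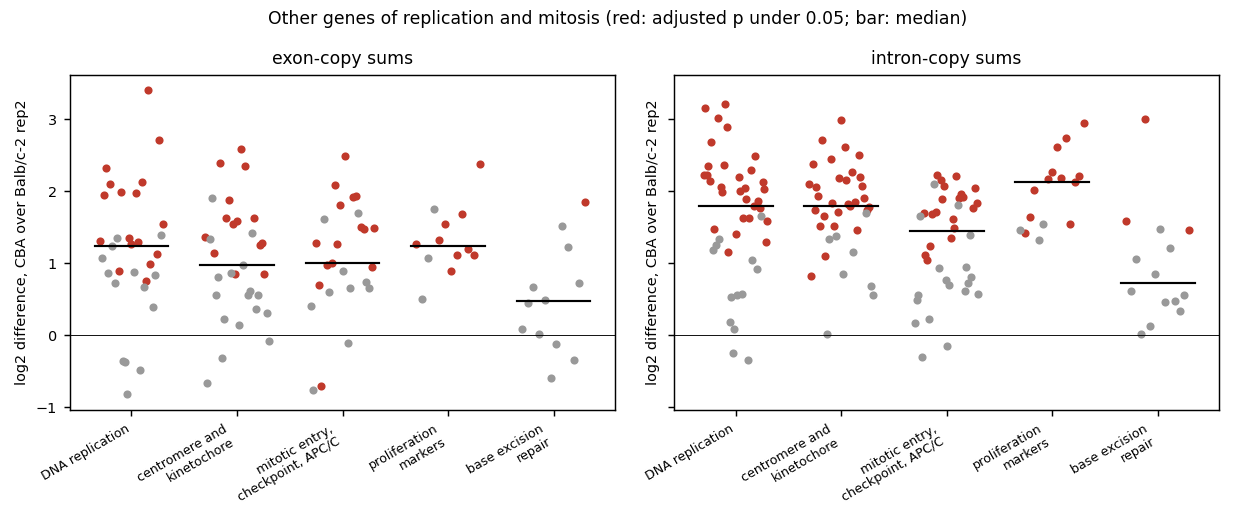
Log2 difference of CBA over Balb/c-2 rep2 for each tested gene of the 5 lists, on exon-copy sums (left) and intron-copy sums (right), with a point per gene, genes past an adjusted p of 0.05 in red and the list's median as a bar. On exon copies the medians of 4 lists lie at 0.97 to 1.24 and that of base excision repair at 0.47.

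In the comparisons without CBA the lists had their largest count of lower genes in N2.3 against N2.1, the comparison in which the members' introns were nearest to the threshold. There 10 of 111 fell on exon copies (9.01%, beside 1.62% of all genes lower), with a median of -0.45 beside 0.01. Of the genes named above, Dna2 (-1.55, limma adjusted p = 0.0375), Ndc80 (-2.40, 0.00639), Tk1 (-1.32, 0.0408) and Foxm1 (-0.81, 0.0362) were among them. The count was 2 without N2.3 C, 3 without N2.3 B or N2.1 C and 4 without N2.3 A, N2.1 D or N2.1 E, and it was 18 with DESeq2. On intron copies it was 3 of 147, where 1.57% of all genes were called in either direction. In N2.1 against F2, 7 of 111 rose and 2 fell on exon copies, where 15.1% of all genes were called in either direction. There 35 of 147 rose on intron copies (23.8%, beside 28.5% of all genes). In Balb/c-2 against Balb/c-1 the list medians were -0.36 on exon and -0.33 on intron copies, beside 0.03 and 0.05 over all genes.

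The 5 genes varied together over the libraries. Pearson correlations of log2 intron sums over the 40 libraries lay between 0.730 and 0.894 for the 10 pairs of genes (median 0.825), and between 0.342 and 0.786 (median 0.561) after the group means were taken out. The points share their library, its scaling and its intron share. The 40 libraries include those of CBA and Balb/c-2 rep2, whose difference chose the genes. A positive correlation over all libraries was therefore built in, and the values of other pairs of genes are not given here. Genes most like the mean of the 4 members with exon copies, among 5076 genes with a mean exon sum of at least 20, were Cenpa (0.909), Spc24 (0.888), Pclaf (0.871), Ska3 (0.868), Ercc6l (0.863) and Aurkb (0.860), where the median gene had -0.0565 and the 95th percentile was 0.581. On intron sums, a measure added after the values were seen, the nearest of 6152 genes to the mean of the 5 were Uhrf1 (0.940), Ncaph (0.937), Cenph (0.935), Incenp (0.930), Cenpa (0.923) and Knstrn (0.913), with 0.283 for the median gene and 0.711 at the 95th percentile.

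Taken singly, the exon sum of Cenpl was nearest to Spc24 (0.831) and Cenpa (0.818), both of the centromere or kinetochore, and that of Gins1 to Aurkb (0.850) and Ska3 (0.841). The Neil3 exon sum was nearest to Mum1 (0.844) and Birc5 (0.836), and that of Lig1, at a few reads a library, to Smg5 (0.619) and Tars2 (0.572). On introns Lig1 was nearest to Tk1 (0.908) and Ncaph (0.906), Gins1 to Uhrf1 (0.883) and Ncaph (0.876), Neil3 to Cenph (0.908) and Cenpa (0.907), Cenpl to Cenpa (0.902) and Nuf2 (0.874), and Cdc20 to Prr11 (0.866) and Rfc2 (0.855). The correlations describe these 40 libraries, among them those of CBA and Balb/c-2 rep2 that chose the members. In the summed introns of the 5 genes the CBA and Balb/c-2 groups lie at the ends of the range of group means. In Gins1 exons CBA ranked 8 of 11, with both Balb/c-2 sets lowest.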

How the data were processed

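Poly(A) RNA-seq of 40 libraries was deposited as 1 table of signal per annotated repeat copy, which the authors made by dividing reads by 1 factor per library. Whole reads were recovered in 100% of values within 0.1 read. Build mm10 and the tools featureCounts 1.5.0-p3, HISAT2 2.0.5 and StringTie 1.3.3b are named, per the submitters' processing notes. Neither strand nor the handling of reads that match more than 1 copy is stated, and the labels tie no library to a sequencing batch. The deposited column names give a flow cell lane for CBA and Balb/c-2 rep2 alone, shared by 5 of their 6 libraries. In the other comparisons batch and passage cannot be told apart.

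Copies were placed with bedtools 2.31.1 on GENCODE M21, any exon before introns, and summed per host gene. Sums with a mean of at least 5 were fitted in limma 3.58.1 (R 4.3.3) as log2(signal + 1), 1 mean per group over all 11 groups, with two-sided tests and Benjamini-Hochberg adjustment over all genes of a comparison, and called at an adjusted p under 0.05. A fold change on this scale understates that of low genes. Groups came from sample titles. Tests had been planned for counts or signal, and the signal form was used. edgeR 4.0.16 and DESeq2 1.42.0 were run on recovered reads as alternatives, beside other scalings, pseudocounts, filters and library omissions. Exons of protein-coding transcripts alone and scaling to intron signal were added after the data were seen, as was a filter of copies without CBA. Of each list, at most 4 called genes with the highest and 2 with the lowest difference are named.

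The members and lists were chosen with earlier results of these data known. The fits were tested on simulated data with an assumed spread, for N2.1 against F2 and CBA against Balb/c-2 rep2, on exon and intron sums. They recovered 17% to 43% of genes changed 2-fold and 90% to 100% of genes changed 4-fold. A member that did not pass may therefore still have changed 2-fold. Same-letter tumours of neighbouring passages were not pairs, since in no comparison was every correlation of their deviations over 0.1. Replicates are separate tumours, or cultures of the line.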

Additional observations from a re-analysis of the deposited data

Results flagged for a closer look

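Of 45 sets of library values tested for 1 value standing apart (5 genes, exon and intron sums, groups of 4 or 5 libraries), 1 had such a value, where chance gives about 1 in 20. It was the Neil3 exon-copy sum in F1, with 8.56 in F1 D, against 19.1 to 20.7 in the other 3 tumours. The gap was 0.872 of the range of the group. F1 is not a side of any tested comparison, but its libraries enter the estimate of spread that the tests share. The fits were not repeated without F1 D.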

How the results depend on the processing

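Of 1188 alternative values of the members in the 6 comparisons without CBA, 1177 kept their side of the threshold and 11 came to pass it. Balb/c-2 against Balb/c-1, given above with no test, is counted among the 6. The 11 were of N2.1 against F2 and N2.3 against N2.1. A change of sign with either value past the threshold occurred in 0. Where neither value passed, signs were not compared, and some changed. For Lig1 introns in N2.1 against F2 the alternatives reached from -0.52 to 0.58, and for Neil3 exons there from -0.64 to 1.16. Of 176 alternative values with CBA, 159 moved by less than the spread between replicates, 17 by more, and 0 changed sign. Over all alternatives the intron log2 differences of CBA over Balb/c-2 rep2 were 1.66 to 3.12 (Lig1), 1.68 to 3.04 (Neil3), 1.68 to 2.81 (Cenpl), 1.73 to 2.92 (Cdc20) and 1.93 to 2.71 (Gins1). Those of the exons were 0.82 to 1.295 (Cenpl), 0.55 to 1.08 (Gins1) and 2.00 to 4.16 (Neil3). Those of the ratio were 0.65 to 1.66 (Cenpl), 0.87 to 1.84 (Gins1) and -1.12 to -0.10 (Neil3).

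Counts of genes called moved more, and the cause was not tested. For CBA against Balb/c-2 rep2, exon calls were 953 in limma, 350 to 937 with 1 library left out and 265 with the intron share as a covariate. Intron calls were 1292, then 490 to 1315, with DESeq2 448, edgeR 352, the covariate 86, intron scaling 498 and TMM 694. Ratio calls were 170, then 7 to 176, with protein-coding exons 358, the covariate 0 (which takes up much of this contrast), a mean of at least 20 303, no filter 68 and pseudocount 5 332. Libraries that moved these counts past 1.5 times were Balb/c-2 rep2 A (exon 619, intron 641, ratio 28), rep2 C (350, 496, 7), CBA A (497, 817, 46), CBA B (intron 802, ratio 45) and CBA C (506, 490, 9).

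For Balb/c-1 against N2.3, exon calls were 560 (192 to 488 with 1 library left out, covariate 312) and intron calls 316 (143 to 330, DESeq2 667, edgeR 499, mean of at least 20 191, no filter 522). For Balb/c-2 against Balb/c-1, exon calls were 2 (0 to 82, copies wholly inside an exon 0, DESeq2 43, protein-coding exons 0, covariate 11, mean of at least 20 6, no filter 64, pseudocount 5 8). Intron calls were 0 in limma (0 to 21, 665 at an unadjusted p under 0.05, DESeq2 4, protein-coding exons 2, covariate 8, pseudocount 0.5 2, pseudocount 5 3, intron scaling 7, TMM 6). For F0 against YUMM1.7 cells, exon calls were 1 (0 to 2, no filter 10, pseudocount 5 0, replicate block 0) and intron calls 1 (1 to 3, no filter 15). For F2 against F0, exon calls were 13 (0 to 41, DESeq2 43, protein-coding exons 21, covariate 0, TMM 70). Intron calls were 4 (0 to 749, DESeq2 22, edgeR 2, covariate 0, mean of at least 20 1, no filter 9, pseudocount 5 1, replicate block 237, intron scaling 2, TMM 2). For N2.1 against F2, exon calls were 1151 (741 to 1253, covariate 484) and intron calls 3002 (1717 to 3919, DESeq2 1019, edgeR 839, covariate 231, intron scaling 907, TMM 1264). For N2.3 against N2.1, exon calls were 297 (158 to 419, no filter 489) and intron calls 160 (47 to 323, DESeq2 396, edgeR 303, mean of at least 20 90, no filter 368).

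List genes higher on exon copies in CBA were 55 (25 to 57 with 1 library left out, TMM 36, covariate 26) and on intron copies 94 (54 to 86, edgeR 34, DESeq2 39, covariate 6, intron scaling 52). List genes lower on exon copies in N2.3 against N2.1 were 10 (2 to 13, DESeq2 18, protein-coding exons 4, replicate block 4, TMM 6). With the replicate block, which fits the tumour letter beside the group, 890 exon, 1362 intron and 190 ratio calls were made in CBA against Balb/c-2 rep2. No member passed with the block that did not pass without it.

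The members rest on few reads, with a signal of 4.54 to 22.1 per library for Cdc20 introns in Balb/c-2 rep2, so small differences were not detectable at this depth. The ratio was not fitted with count models. Copies of 1 gene, and both Balb/c-2 sets, are not independent. The CBA passage was made once, and its libraries differ from those of Balb/c-2 rep2 in intron share without overlap, so the passage and this property of the libraries cannot be told apart.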

Other observations

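The same 3 Balb/c-2 tumours were sequenced in a first set and in rep2, which gives the members' spread between repeat libraries. Tumours A and C had close Lig1 intron sums in both sets, with 14.6 and 12.1 in rep2, against 9.67 and 11.5 in the first set. Neil3 likewise had 22.6 and 9.08 in rep2, against 22.96 and 10.3. Tumour B was lower in rep2 for Lig1 (30.9, against 50.4), Neil3 (32.1, against 47.1) and Cenpl (18.8, against 38.1). For Cdc20 tumour C differed most, with 4.54 in rep2, against 20.6 in the first set. For Gins1 all 3 tumours were lower in rep2, with 10.6, 15.5 and 16.6, against 19.3, 22.4 and 19.5. None of these values reached the lowest CBA library of its gene. Deviations of same-letter tumours correlated at 0.256 to 0.408 between both sets over all genes.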
